A study of Mus musculus with 12 samples.

Results

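The 10 genes described here are interferon-stimulated genes: the transcription factors Irf1, Irf7 and Irf9, the RNA sensor Ifih1, and the effectors Isg15, Ifit1, Ifit2, Ifit3, Bst2 and Ifitm3. They were taken by gene name from a deposited table of 56748 genes, and each name matched 1 row. All 10 passed the filter on low counts and were tested among 18334 genes. Polyadenylated RNA was sequenced from whole mouse retinas in 4 groups of 3 mice, each library from a retina of a separate animal. The groups were JR5558 mice of 8 weeks, JR5558 mice of 4 weeks, C57BL/6J mice of 8 weeks and C57BL/6J mice of 4 weeks. JR5558 is an inbred line that forms new vessels beneath the retina without any treatment, and it is known to carry alleles of Crb1 (rd8) and Jak3. C57BL/6J is the wild-type control strain, and no group received an agent or a transgene. The strains differ at more loci than the named alleles, so a strain difference cannot be assigned to 1 of them.

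Type I interferons bind a receptor of IFNAR1 and IFNAR2 and act through the kinases JAK1 and TYK2. IRF9 then joins a complex that binds an interferon-stimulated response element and switches on antiviral genes. Interferon gamma instead acts mainly at gamma-activated sites, and Irf1 is a well-known target of it. In the retina, microglia, Müller glia, pigment epithelium and endothelial cells can all express such genes.

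The promoters were searched for the elements through which these genes are known to respond, with sequences from RefSeq on GRCm38.p6. Windows ran from 250 bases before to 50 bases after a start, and both strands were read. The core of the response element, GAAA followed after any 2 bases by another GAAA, was found in 3.44% of 32851 promoter windows of all genes and in the windows of 6 of the 10 genes. In Isg15, Ifit1, Ifit3 and Bst2 it lay before the start, and in Ifih1 and Ifitm3 after it. The core of the gamma-activated site, TTCNNNGAA, was found in 8.3% of all windows and in those of Ifit2, Irf1, Bst2 and Ifitm3. Neither string was in the windows of Irf7 and Irf9. The 200 bases before the start are shown for the 4 genes with this repeat there, and for Irf1 as an example of the other element. Capitals mark the GAAA repeat on either strand (a TTTC repeat where it lies on the other strand) and, in Irf1, TTCNNNGAA. In Bst2 a TTCNNNGAA match overlaps the start of the capitals and is not marked. The windows are chr19:34583329-34583528 (plus strand) for Ifit3, chr19:34640689-34640888 (plus) for Ifit1, chr4:156200819-156201018 (minus) for Isg15, chr8:71537473-71537672 (minus) for Bst2 and chr11:53769814-53770013 (plus) for Irf1.
Ifit3: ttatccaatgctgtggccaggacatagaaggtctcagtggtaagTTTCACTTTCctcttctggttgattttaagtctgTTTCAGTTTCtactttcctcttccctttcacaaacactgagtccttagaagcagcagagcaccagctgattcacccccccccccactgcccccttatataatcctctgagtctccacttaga
Ifit1: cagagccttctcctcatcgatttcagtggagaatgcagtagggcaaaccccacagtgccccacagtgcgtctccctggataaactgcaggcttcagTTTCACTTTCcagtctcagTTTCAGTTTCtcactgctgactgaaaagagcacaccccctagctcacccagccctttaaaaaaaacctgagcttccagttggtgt
Isg15: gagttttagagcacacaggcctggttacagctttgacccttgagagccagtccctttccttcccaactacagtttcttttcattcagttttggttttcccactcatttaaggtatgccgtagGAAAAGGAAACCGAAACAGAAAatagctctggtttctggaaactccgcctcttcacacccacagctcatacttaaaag
Bst2: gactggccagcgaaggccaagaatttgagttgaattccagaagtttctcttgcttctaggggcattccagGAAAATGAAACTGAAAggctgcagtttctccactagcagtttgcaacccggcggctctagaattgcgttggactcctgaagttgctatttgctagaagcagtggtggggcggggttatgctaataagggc
Irf1: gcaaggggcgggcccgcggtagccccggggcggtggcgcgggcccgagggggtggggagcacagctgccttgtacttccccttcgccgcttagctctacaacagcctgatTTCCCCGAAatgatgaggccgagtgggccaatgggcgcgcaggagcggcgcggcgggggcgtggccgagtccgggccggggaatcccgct
Isg15 held 3 overlapping matches, whereas Ifit3 and Ifit1 held 2 separate ones and Bst2 held 2 overlapping ones. A match describes letters in the window and not a bound site.

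The libraries held 18029600 to 23739900 counts. The labels give no sex. By Xist, which is transcribed from the inactive X chromosome, JR5558 mice of 4 weeks (0 to 5 counts per library) stood apart from the other 9 libraries (7772 to 22988). Ddx3y, on the Y chromosome, showed the reverse, with 1323 to 1846 counts against 0. Strain at 4 weeks, age in JR5558 and the change of the strain difference with age therefore cannot be told apart from sex. Sex also enters the contrasts averaged over ages or strains. Strain at 8 weeks and age in C57BL/6J were compared among the 9 libraries with high Xist and 0 Ddx3y counts. Within C57BL/6J, Xist was still lower at 8 than at 4 weeks (log2 fold change -0.79 ± 0.17, SE, edgeR adjusted p = 0.0429). The summed level of 10 pigment epithelium markers was 397 to 568 CPM (reads scaled to a common library total, with TMM factors) in JR5558 against 191 to 293 CPM in C57BL/6J at 8 weeks. At 4 weeks it was 349 to 517 CPM in JR5558 against 114 to 259 CPM in C57BL/6J.

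All 10 transcripts were present in every library, at low to moderate levels. Compared per gene length by the authors' FPKM and averaged over the 12 libraries (± SD), Ifitm3 stood highest at 14.0 ± 2.26 FPKM. It lay above Ifit3, at 7.62 ± 1.72 FPKM, in 12 of 12 libraries. Bst2 followed at 5.06 ± 1.81 FPKM, Irf7 at 4.06 ± 0.462 FPKM, Irf9 at 3.80 ± 0.572 FPKM and Ifit2 at 3.62 ± 0.369 FPKM. Isg15 averaged 2.52 ± 0.769 FPKM, Ifit1 1.69 ± 0.508 FPKM and Irf1 1.33 ± 0.191 FPKM. Ifih1 was lowest at 0.617 ± 0.146 FPKM, and it lay below Irf1 in 12 of 12 libraries. For every other pair of neighbours in this order the ranges over libraries overlapped. Isg15 rested on the fewest reads, 19 to 58 counts per library, and Irf9 on the most, 243 to 550. Between the lowest and the highest library, CPM differed least for Ifit2 (1.41-fold) and most for Bst2 (3.22-fold).

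**Figure D1:**
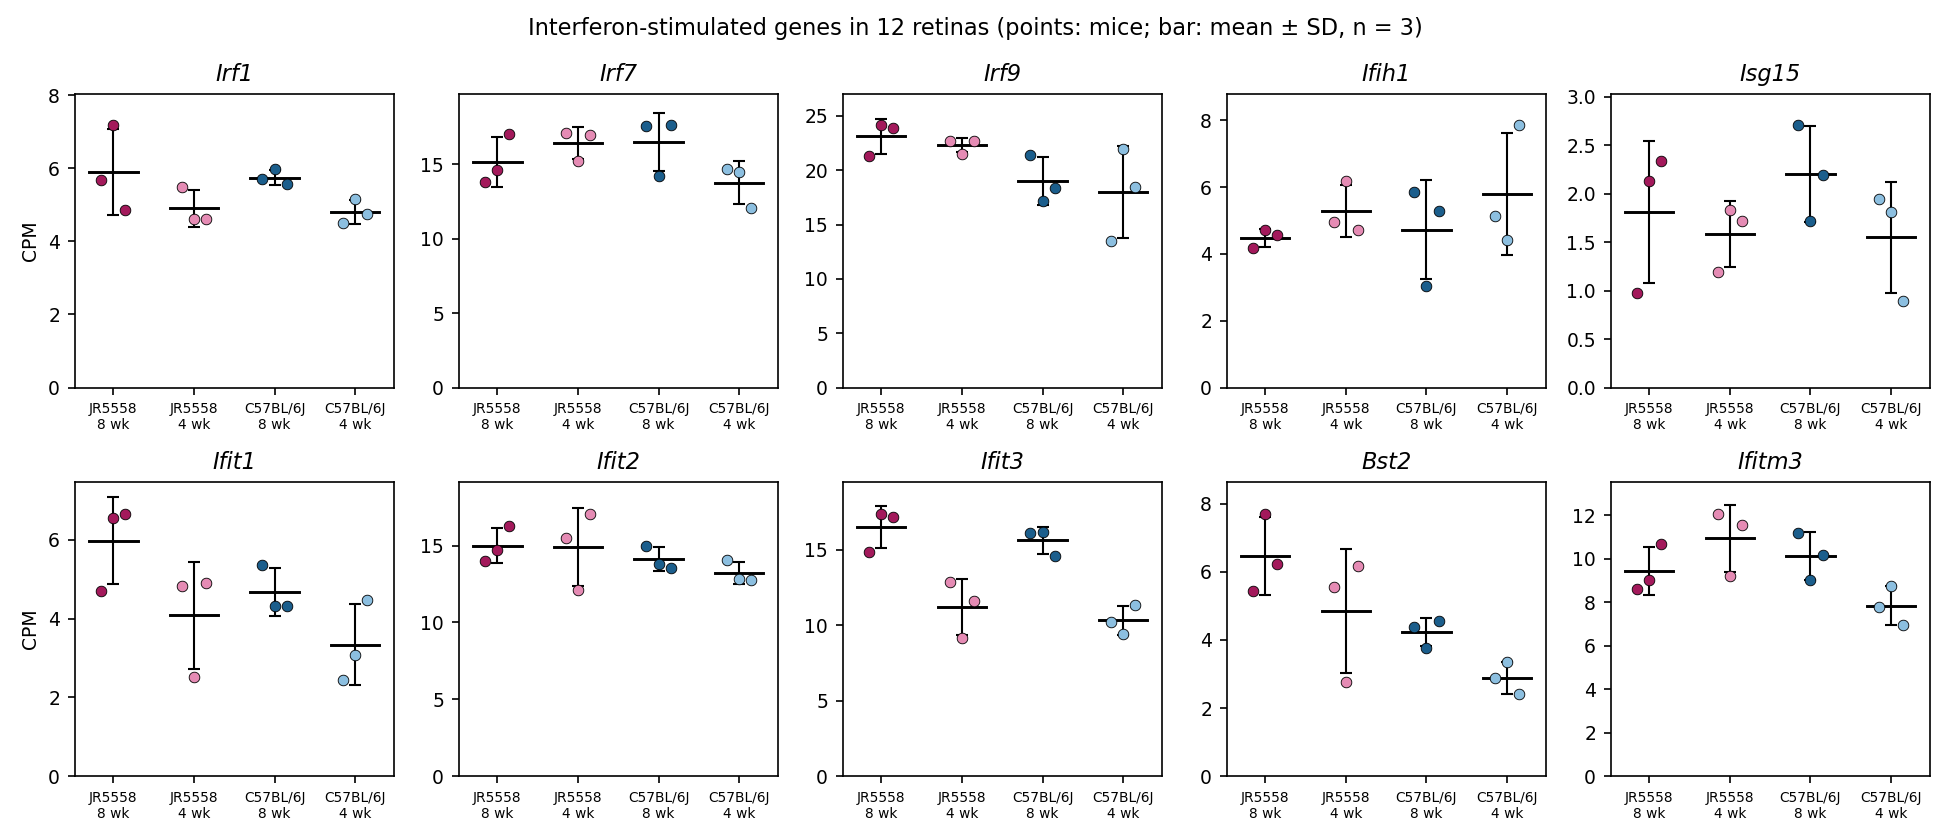
CPM of each of the 10 genes (vertical axis, from 0) in JR5558 at 8 and 4 weeks and C57BL/6J at 8 and 4 weeks. Points are mice, and the horizontal line and error bar are the mean and SD of 3 mice. Ifit3 separates by age in both strains, and Bst2 averages 6.47 and 4.84 CPM in JR5558 at 8 and 4 weeks, against 4.23 and 2.88 CPM in C57BL/6J.

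How the strains differ in these genes was asked first at each age. Of the 10 genes, 0 passed an adjusted p of 0.05 at 4 weeks by edgeR's quasi-likelihood test, where 6.16% of all tested genes did, and 0 passed at 8 weeks, where 5.18% did. DESeq2 also called 0 of them at each age, while calling 7.69% of the tested genes at 4 weeks and 6.73% at 8 weeks. At an unadjusted p under 0.05 there were 3 at 4 weeks (Irf9, Bst2 and Ifitm3), where 19.1% of all tested genes reached it, and 1 at 8 weeks (Bst2), where 17.4% did. The median log2 fold change of the 10 genes was 0.22 at 4 weeks and 0.06 at 8 weeks, against -0.00 over all tested genes at each age. At 4 weeks 9 of the 10 fold changes were above 0, and at 8 weeks 6 were. In bulk tissue, fewer cells of a type and less RNA per cell cannot be told apart.

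**Figure D2:**
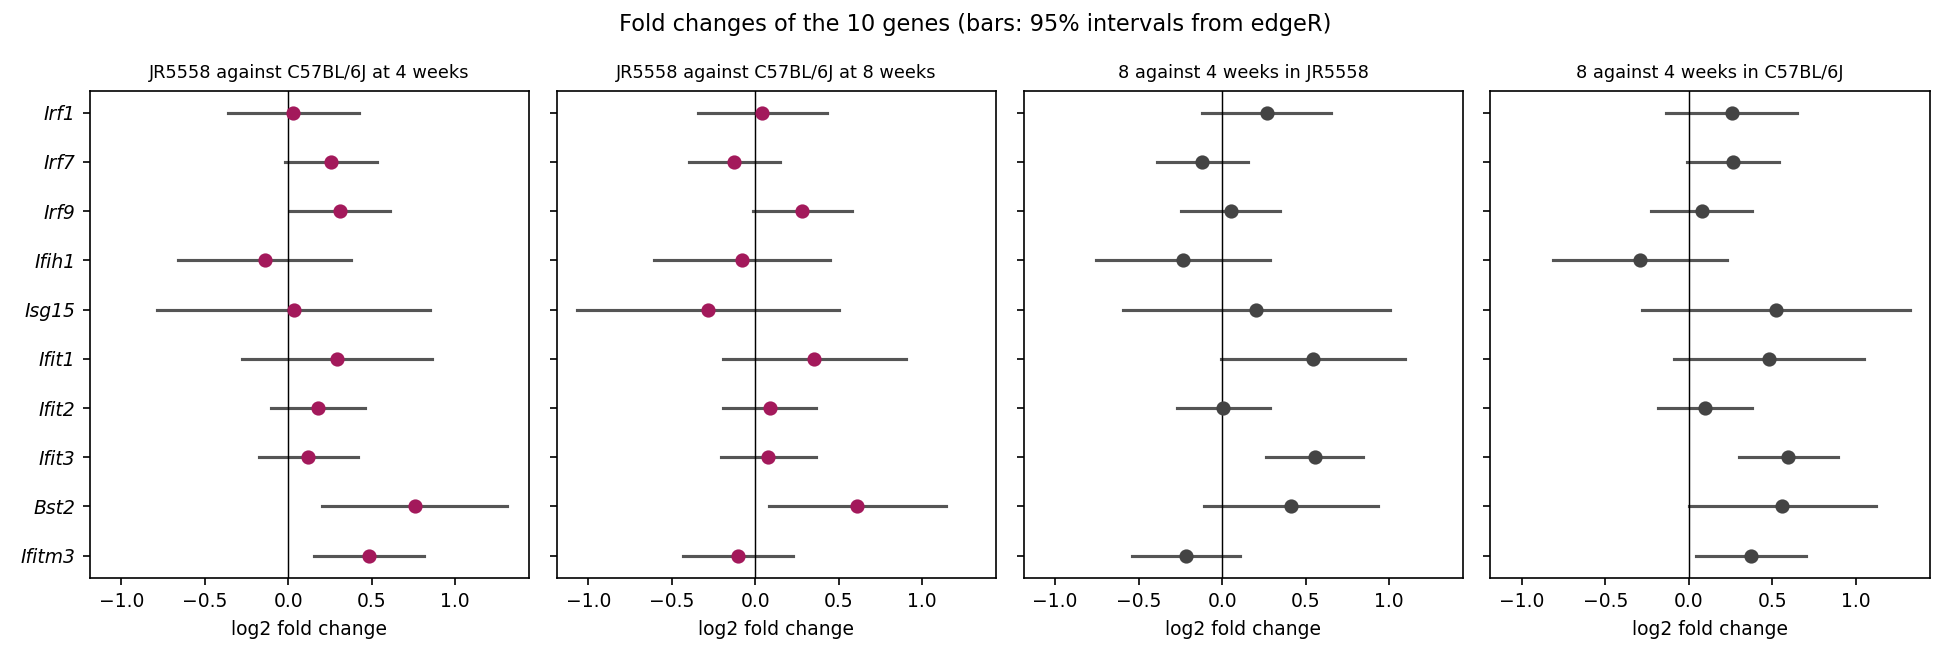
Log2 fold changes (horizontal axis) of the 10 genes in the strain comparisons (JR5558 over C57BL/6J) and the age comparisons (8 over 4 weeks), with 95% intervals from edgeR as bars. In the strain comparisons the intervals of Bst2 lie above 0 at both ages and those of Irf9 and Ifitm3 only at 4 weeks, and in the age comparisons those of Ifit3 do in both strains and that of Ifitm3 in C57BL/6J only; intervals are not adjusted for the number of genes tested.

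Among the transcription factors, Irf9 (ENSMUSG00000002325, chromosome 14) is a DNA-binding part of the complex at the response element. At 4 weeks it stood at 22.7, 21.5 and 22.7 CPM in JR5558, against 13.5, 22.0 and 18.5 CPM in C57BL/6J. At 8 weeks it stood at 21.3, 24.2 and 23.9 CPM in JR5558, against 21.4, 17.1 and 18.4 CPM in C57BL/6J. At each age 1 library of C57BL/6J reached into the JR5558 range. Log2 fold changes were 0.31 ± 0.14 (SE, adjusted p = 0.248) at 4 weeks and 0.28 ± 0.14 (adjusted p = 0.318) at 8 weeks. Averaged over both ages, a contrast added after the values were seen, the difference was 0.30 ± 0.10 (adjusted p = 0.0679). Without C57BL/6J 4-week replicate 2 that averaged difference passed at 0.37 ± 0.10 (adjusted p = 0.0172, with 0.0172 to 0.158 over the 12 fits that leave out 1 library). DESeq2 gave it an adjusted p of 0.0443, in a contrast where it called 13.3% of all tested genes. Irf9 shares 123 bases with Rnf31 on the same strand, so part of its reads could have been counted for either.

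Irf7 (ENSMUSG00000025498, chromosome 7) amplifies the type I response. It stood at 17.1, 15.2 and 16.9 CPM in JR5558 against 14.7, 14.5 and 12.1 CPM in C57BL/6J at 4 weeks, with no overlap. At 8 weeks the values were 13.8, 14.6 and 17.0 CPM in JR5558, against 17.6, 14.2 and 17.6 CPM in C57BL/6J, and the groups overlapped. This gave log2 fold changes of 0.26 ± 0.13 (adjusted p = 0.301) and -0.12 ± 0.13 (adjusted p = 0.695). Irf7 overlaps Phrf1 on the opposite strand by 45 bases, and whether counting used strand is not settled.

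Irf1 (ENSMUSG00000018899, chromosome 11), the early responder to interferon gamma, averaged 4.90 ± 0.508 CPM in JR5558 and 4.81 ± 0.324 CPM in C57BL/6J at 4 weeks (SD, n = 3 mice). At 8 weeks it averaged 5.91 ± 1.18 CPM in JR5558 and 5.74 ± 0.211 CPM in C57BL/6J. These groups overlapped at both ages. The strain fold changes were 0.03 ± 0.19 and 0.04 ± 0.18 on the log2 scale, with 95% intervals of -0.36 to 0.42 and -0.34 to 0.43. Irf1 overlaps the unnamed model Gm17334 on the opposite strand, which held 84 counts in all against 1309 of Irf1.

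Ifih1 (ENSMUSG00000026896, chromosome 2) encodes MDA5, a cytoplasmic sensor of double-stranded RNA. It averaged 5.28 ± 0.781 CPM in JR5558 and 5.80 ± 1.82 CPM in C57BL/6J at 4 weeks. At 8 weeks it averaged 4.48 ± 0.273 CPM in JR5558 and 4.72 ± 1.48 CPM in C57BL/6J. C57BL/6J varied more between mice than JR5558, with 3.04 to 5.84 CPM at 8 weeks against 4.18 to 4.70 CPM in JR5558; this difference in spread was not tested. The log2 fold changes were -0.14 ± 0.25 and -0.08 ± 0.25 (adjusted p = 0.816 and 0.920), and each turned positive without 1 C57BL/6J library of its age (replicate 3 at 4 weeks, replicate 1 or 3 at 8 weeks).

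Among the effectors, Bst2 (ENSMUSG00000046718, chromosome 8) had the largest strain fold changes at both ages. It encodes tetherin, which holds budding virus particles on the cell surface. At 4 weeks Bst2 stood at 5.57, 2.77 and 6.19 CPM in JR5558, against 2.90, 3.35 and 2.40 CPM in C57BL/6J. The second JR5558 mouse lay inside the C57BL/6J range, and the other two lay above it. At 8 weeks it stood at 5.44, 7.72 and 6.24 CPM in JR5558, against 4.39, 3.76 and 4.54 CPM in C57BL/6J, with no overlap. The log2 fold changes were 0.76 ± 0.26 (adjusted p = 0.107) at 4 weeks and 0.61 ± 0.25 (adjusted p = 0.203) at 8 weeks, and neither passed by edgeR. Without JR5558 4-week replicate 2 the 4-week value was 1.03 ± 0.22 (adjusted p = 0.00985), within a range of 0.00985 to 0.331 over its 11 alternatives. With only the 8-week libraries in the fit the 8-week adjusted p was 0.0390, within 0.0390 to 0.534.

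In the contrast over both ages, added after the values were seen, Bst2 rose 1.61-fold in JR5558 (log2 fold change 0.68 ± 0.18, 95% interval 0.30 to 1.07, adjusted p = 0.0190 by edgeR). It was the 1 gene of the 10 past the threshold there, where 11.2% of all tested genes were called. The 4-week part of this contrast carries the difference in sex as well. The call held in 10 of the 12 fits that leave out 1 library. It ended without C57BL/6J 8-week replicate 2 (adjusted p = 0.0509) and without JR5558 8-week replicate 2 (adjusted p = 0.0618).

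Cell type markers moved with strain beside Bst2. The summed microglia markers stood at 59.0 to 67.6 CPM in JR5558 against 47.1 to 53.2 CPM in C57BL/6J at 4 weeks, and at 61.4 to 69.2 CPM against 45.0 to 48.3 CPM at 8 weeks. Of the 8 microglia markers, 1 was higher in JR5558 past the threshold at 8 weeks, Csf1r. The Müller glia sum at 8 weeks was 4459 to 4685 CPM in JR5558 against 3470 to 3798 CPM in C57BL/6J, while at 4 weeks the groups overlapped (3687 to 4323 CPM in JR5558, 3178 to 3699 CPM in C57BL/6J). Of its 6 markers, 5 were higher in JR5558 past the threshold at 4 weeks and 2 at 8 weeks. Fold changes were above 0 for 6 of 6 at each age. The 8 monocyte and macrophage markers summed to 8.94 to 10.5 CPM in JR5558 against 4.17 to 7.10 CPM in C57BL/6J at 8 weeks, and to 6.48 to 9.37 CPM against 4.85 to 6.27 CPM at 4 weeks. Among them the monocyte genes Ccr2 and Ly6c2 had at most 4 and 1 counts in any library, 3 of the 8 could be tested, and Lyz2 was higher in JR5558 at 8 weeks. Lyz2 was the largest part of this sum, averaging 6.62 CPM in JR5558 and 2.88 CPM in C57BL/6J at 8 weeks. At 4 weeks it averaged 4.16 and 2.42 CPM. Cd68 also averaged higher in JR5558 at both ages. F13a1, Ms4a7 and Cd163 averaged lower in JR5558 at both ages, and Mrc1 at 8 weeks only. Of the 10 pigment epithelium markers, 9 were higher in JR5558 past the threshold at 4 weeks and 2 at 8 weeks. Their fold changes were above 0 for 9 markers at 4 weeks and 10 at 8 weeks. The endothelial sum was lower in JR5558 at 8 weeks, 52.5 to 60.0 CPM against 71.4 to 76.7 CPM in C57BL/6J, and overlapped at 4 weeks (72.5 to 83.6 CPM in JR5558, 72.6 to 76.6 CPM in C57BL/6J), with 1 and 0 of 6 markers lower past the threshold. The part of these cells in the Bst2 difference was not tested.

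**Figure D3:**
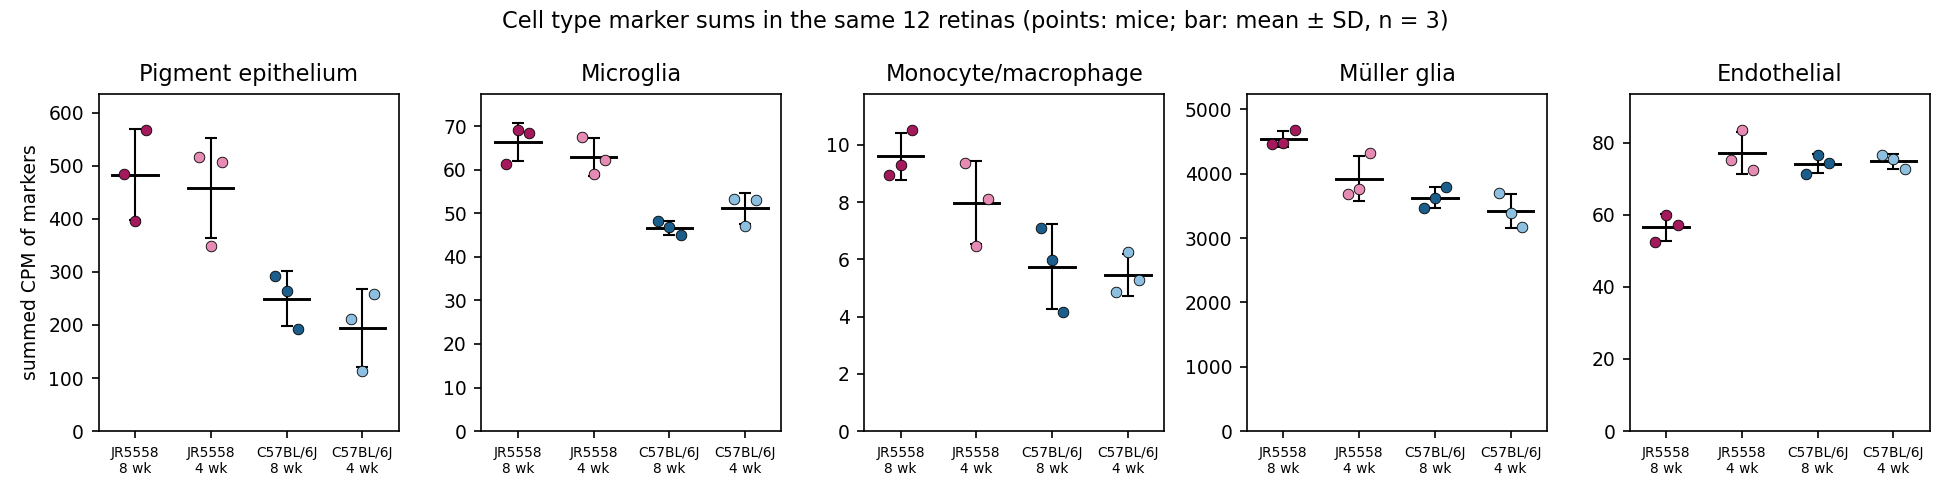
Summed CPM of cell type markers (vertical axes, from 0, a scale of their own in each panel) in the same libraries, with points for mice and the mean and SD of 3 mice. Pigment epithelium, microglia and monocyte or macrophage sums lie higher in JR5558 than in C57BL/6J at both ages, and the endothelial sum lies lower in JR5558 at 8 weeks.

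Ifitm3 (ENSMUSG00000025492, chromosome 7) encodes a membrane protein that blocks virus entry through endosomes. At 4 weeks it stood at 12.1, 9.20 and 11.5 CPM in JR5558, against 7.80, 8.77 and 6.96 CPM in C57BL/6J. The groups did not overlap at this age, as was true of Irf7; these 2 of the 10 genes lay higher in every JR5558 retina, a pattern that 10.1% of all tested genes showed. At 8 weeks Ifitm3 stood at 8.60, 9.05 and 10.7 CPM in JR5558, against 11.2, 9.02 and 10.2 CPM in C57BL/6J, and the groups overlapped. The log2 fold changes were 0.48 ± 0.16 (adjusted p = 0.0814) at 4 weeks and -0.10 ± 0.16 (adjusted p = 0.804) at 8 weeks. Without JR5558 4-week replicate 2 the 4-week value passed at 0.59 ± 0.16 (adjusted p = 0.0455, in a range of 0.0455 to 0.227 over its 11 alternatives). At 8 weeks Bst2 was the 1 gene of the 10 that was higher in every JR5558 retina, where 14.9% of all tested genes were. The long non-coding RNA model ENSMUSG00000121233, on the opposite strand, overlaps all 1185 bases of Ifitm3. That model held 0 counts in all, against 2355 of Ifitm3.

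Ifit1, Ifit2 and Ifit3 lie together on chromosome 19 and encode tetratricopeptide proteins that bind viral RNA or one another. Ifit1 (ENSMUSG00000034459) stood at 4.83, 2.51 and 4.91 CPM in JR5558 against 2.45, 3.08 and 4.47 CPM in C57BL/6J at 4 weeks. At 8 weeks it stood at 4.71, 6.56 and 6.67 CPM in JR5558 against 5.37, 4.31 and 4.33 CPM in C57BL/6J. The groups overlapped at both ages, and the log2 fold changes were 0.29 ± 0.27 (adjusted p = 0.630) and 0.35 ± 0.26 (adjusted p = 0.543). Ifit2 (ENSMUSG00000045932) had the narrowest range of the 10, at 12.1 to 17.1 CPM in JR5558 and 12.7 to 14.0 CPM in C57BL/6J at 4 weeks, and at 14.0 to 16.3 CPM in JR5558 against a mean of 14.1 ± 0.772 CPM in C57BL/6J at 8 weeks. Its log2 fold changes were 0.18 ± 0.13 and 0.09 ± 0.13, with 95% intervals reaching no higher than 0.46 and 0.36. Ifit3 (ENSMUSG00000074896) differed between the strains by 0.12 ± 0.14 at 4 weeks and 0.08 ± 0.14 at 8 weeks, with 95% intervals of -0.18 to 0.42 and -0.21 to 0.36.

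Isg15 (ENSMUSG00000035692, chromosome 4) encodes a ubiquitin-like protein that is attached to other proteins. It stood at 1.20, 1.83 and 1.72 CPM in JR5558 against 1.95, 1.81 and 0.894 CPM in C57BL/6J at 4 weeks. At 8 weeks it stood at 0.972, 2.13 and 2.34 CPM in JR5558 against 2.71, 1.71 and 2.19 CPM in C57BL/6J. The ranges overlapped at both ages. The log2 fold changes of 0.03 ± 0.39 and -0.28 ± 0.37 had 95% intervals of -0.78 to 0.85 and -1.07 to 0.50. At 4 weeks this interval still held a change of the size seen in Bst2.

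The age comparisons turned on Ifit3, which was higher at 8 weeks in every mouse of both strains. In JR5558 it stood at 14.9, 17.4 and 17.2 CPM at 8 weeks, against 12.8, 9.15 and 11.6 CPM at 4 weeks. In C57BL/6J it stood at 16.1, 16.2 and 14.5 CPM at 8 weeks, against 10.2, 9.40 and 11.3 CPM at 4 weeks. All 6 retinas of 8 weeks lay above all 6 of 4 weeks. The C57BL/6J retinas of both ages had high Xist and 0 Ddx3y counts, though Xist was lower at 8 weeks (adjusted p = 0.0429 by edgeR). In JR5558, Xist was high only at 8 weeks and Ddx3y was found only at 4 weeks. For Ifit3 the log2 fold changes were 0.55 ± 0.14 in JR5558 (adjusted p = 0.0511) and 0.60 ± 0.14 in C57BL/6J (adjusted p = 0.0720), just short of the threshold by edgeR. DESeq2 called Ifit3 in JR5558 (adjusted p = 0.00977, in a range of 0.00977 to 0.242 over its 11 alternatives) and in C57BL/6J (adjusted p = 0.0101, range 0.0101 to 0.294). The authors' deposited table gives adjusted p-values of 0.0198 in JR5558 and 0.0439 in C57BL/6J. By edgeR the JR5558 value passed without JR5558 4-week replicate 1 (adjusted p = 0.0468) or replicate 3 (adjusted p = 0.0456).

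In the contrast of 8 against 4 weeks over both strains, added after the values were seen, Ifit3 rose 1.49-fold (log2 fold change 0.58 ± 0.10, 95% interval 0.37 to 0.78, adjusted p = 0.00335 by edgeR). It was the 1 gene of the 10 past the threshold there, where 5.54% of all tested genes were called. The call held in 12 of 12 fits that leave out 1 library, with adjusted p-values of 0.00188 to 0.0159. Ifit3b, a near-identical neighbour of Ifit3 whose reads the counting could have split from it, averaged 7.43 ± 1.66 CPM at 8 weeks and 5.67 ± 1.28 CPM at 4 weeks in JR5558. In C57BL/6J it averaged 7.49 ± 1.15 CPM at 8 weeks and 5.49 ± 0.326 CPM at 4 weeks. Its log2 fold changes of 0.39 ± 0.20 and 0.45 ± 0.21 did not pass (adjusted p = 0.349 and 0.327). Marker sums also moved with age beside Ifit3. The sum of 9 lymphocyte and plasmacytoid dendritic cell markers lay above its 4-week values in all 8-week libraries of each strain. It stood at 10.445 to 16.2 CPM at 8 weeks against 5.96 to 10.397 CPM at 4 weeks in JR5558, and at 13.1 to 15.1 CPM against 8.63 to 9.24 CPM in C57BL/6J. Most of this sum was Bst1, at 9.72 to 15.2 CPM at 8 weeks against 4.50 to 9.37 CPM at 4 weeks in JR5558 and 12.0 to 14.2 CPM against 7.30 to 8.23 CPM in C57BL/6J. Of the 9 markers 2 could be tested, and Bst1 was higher past the threshold in JR5558 (log2 fold change 0.92 ± 0.22, adjusted p = 0.0435) and not in C57BL/6J (0.69 ± 0.22, adjusted p = 0.166). The T cell marker Cd3e had 0 counts in every library. In JR5558 the endothelial sum was 52.5 to 60.0 CPM at 8 weeks against 72.5 to 83.6 CPM at 4 weeks. Of its 6 markers 1 was lower past the threshold, and 0 had fold changes above 0. The Müller glia sum in JR5558 was 4459 to 4685 CPM against 3687 to 4323 CPM, with 0 of 6 past the threshold. In C57BL/6J both of these sums overlapped between the ages. The 6 rod photoreceptor markers summed to 60697 to 63027 CPM at 8 weeks against 52231 to 56428 CPM at 4 weeks in C57BL/6J, with 2 of 6 higher past the threshold, and overlapped in JR5558 (53428 to 55358 CPM at 8 weeks, 51021 to 57439 CPM at 4 weeks). The 5 blood cell markers summed to 20.1 to 21.5 CPM at 8 weeks against 43.6 to 59.5 CPM at 4 weeks in JR5558. There 2 of 5 were lower past the threshold, and 0 had fold changes above 0. In C57BL/6J the blood cell sum overlapped (14.6 to 46.7 CPM at 8 weeks, 28.5 to 55.4 CPM at 4 weeks). The part of these cell types in the Ifit3 difference was not tested.

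Over all 10 genes, edgeR called 0 between 8 and 4 weeks in JR5558, where 1.51% of the tested genes passed, and 0 in C57BL/6J, where 0.431% did. DESeq2 called 1 in each strain, Ifit3, where it called 4.07% of the tested genes in JR5558 and 2.22% in C57BL/6J. At an unadjusted p under 0.05 there was 1 in JR5558 (Ifit3) against 16.9% of all tested genes, and 2 in C57BL/6J (Ifit3 and Ifitm3) against 14.4%. In JR5558 the ages did not overlap for Ifit3, which was higher at 8 weeks, and Ifih1, which was lower, where 24.3% of all tested genes did not overlap. In C57BL/6J 4 of the 10 were higher in every 8-week retina (Ifit3, Irf1, Bst2 and Ifitm3), where 8.98% of all tested genes were. The median log2 fold change of the 10 was 0.13 in JR5558 and 0.32 in C57BL/6J, against -0.01 and 0.00 over all tested genes. Bst2 differed by 0.41 ± 0.25 in JR5558 (adjusted p = 0.424) and 0.56 ± 0.27 in C57BL/6J (adjusted p = 0.347). Ifit1 differed by 0.55 ± 0.26 (adjusted p = 0.301) and 0.48 ± 0.27 (adjusted p = 0.432), and Ifitm3 by -0.22 ± 0.15 (adjusted p = 0.511) and 0.37 ± 0.16 (adjusted p = 0.285).

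Whether the strain difference itself changed with age was tested as an interaction, which sex enters through the JR5558 retinas of 4 weeks. Of the 10 genes 0 passed by edgeR or by DESeq2, where edgeR called 0.0927% of all tested genes and DESeq2 0.344%. Ifitm3 was the 1 gene under an unadjusted p of 0.05, where 7.19% of all tested genes were, with a difference of -0.59 ± 0.22 on the log2 scale (edgeR adjusted p = 0.551). Irf7 came next at -0.38 ± 0.19 (adjusted p = 0.699). The strain and age comparisons share libraries, so these values are not independent of those above.

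The 10 genes went together to differing degrees from mouse to mouse. Over the 45 pairs, the median Pearson correlation of log2 CPM across the 12 libraries was 0.31, and 36 pairs were above 0. After the group means were removed the median was 0.25, and 34 pairs were above 0. Irf7 and Ifitm3 were the closest pair (r = 0.91, permutation p = 0.00013, adjusted over 45 pairs p = 0.00585, with rho = 0.82, p = 0.00188, adjusted p = 0.0508). Their correlation was 0.87 within groups and 0.90 over 10 libraries, after those with the most extreme Irf7 were left out. Ifit1 and Ifit3 followed (r = 0.85, permutation p = 0.00036, adjusted p = 0.00810, with rho = 0.74, p = 0.00786, adjusted p = 0.0707), with 0.85 within groups and 0.77 without the libraries most extreme in Ifit1. These genes neighbour each other and share sequence with other Ifit genes. In all, 4 of the 45 pairs passed by r and 0 by both r and rho. The permutations mixed libraries of all 4 groups, so differences between groups enter these p-values. The correlations within groups were not tested. The lowest correlation of the 45 was -0.42, between Ifih1 and Bst2 (rho = -0.46, permutation p = 0.174 and 0.135, adjusted p = 0.376 and 0.331).

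The mean z-score of the 10 genes summarises each library. Among JR5558 retinas of 4 weeks, replicate 2 stood at -0.57, below the others at 0.40 and 0.41. This library was the lowest of its group in 8 of the 10 genes, all but Isg15 and Ifih1. Other groups had such a library too: JR5558 8-week replicate 1 was the lowest of its group in 9 of the 10 genes and C57BL/6J 8-week replicate 2 in 7. The 8 lens markers summed to 33.1 CPM in JR5558 4-week replicate 2, against 3.01 and 1.77 CPM in replicates 1 and 3. They summed to 63.1 CPM in JR5558 8-week replicate 1, against 16.2 and 8.96 CPM in replicates 2 and 3. C57BL/6J 8-week replicate 2 had 21.8 CPM, with 6.77 and 48.2 CPM in replicates 1 and 3. In C57BL/6J of 4 weeks, replicate 3 (lowest in 5 genes) had 139 CPM, against 11.5 and 8.55 CPM. The part of lens tissue was not tested. In C57BL/6J the scores were 0.72, -0.29 and 0.25 at 8 weeks, against -0.86, -0.52 and -0.83 at 4 weeks. In JR5558 at 8 weeks they were -0.18, 0.74 and 0.73. The protein-coding genes outside the interferon lists whose log2 CPM went most closely with this score over 12 libraries were Ifit1bl2 (Pearson r = 0.87, Spearman rho = 0.90), Itgb7 (0.87 and 0.87), Gstk1 (0.85 and 0.86), Lpin3 (0.84 and 0.83), Fkbp9 (0.84 and 0.89), Agtr1a (0.84 and 0.82), Mmgt2 (0.83 and 0.87) and Epn3 (0.83 and 0.82). These are a description, ranked out of the whole table, and Ifit1bl2, a near copy of Ifit1, had only 1 to 23 counts per library.

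The rest of the pathway was counted in 7 lists of 132 genes, of which 130 were in the table and 91 were tested. Interferon transcripts themselves were near the limit of detection. Of 21 ligand genes, 16 had 0 counts in all 12 libraries, among them Ifnb1 and Ifng, which allows up to 3 counts per library (0.167 CPM or less). The other 5 (Ifna13, Ifne, Ifnk, Ifnz and Ifnl2) had at most 2 counts in any library, and none could be tested. This limit covers counting error only.

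Downstream of the ligands, 3 of the 91 tested genes were higher in JR5558 past the threshold at 4 weeks and 0 were lower past it. Of all tested genes, 6.16% were called there. Lgals3bp, a secreted galectin-binding protein induced by interferon, stood at 24.6 ± 4.91 CPM in JR5558 and 13.5 ± 2.60 CPM in C57BL/6J, and rose on the log2 scale by 0.87 ± 0.16 (adjusted p = 0.00170). It passed in 6 of 6 fits that leave out 1 library. Ifitm1, a relative of Ifitm3 at the cell surface, stood at 1.44 to 1.88 CPM in JR5558 and 0.266 to 0.706 CPM in C57BL/6J, and rose by 1.68 ± 0.45 (adjusted p = 0.0301). Its call ended without C57BL/6J 4-week replicate 1 (adjusted p = 0.0707) or 2 (adjusted p = 0.133) or JR5558 4-week replicate 2 (adjusted p = 0.0872). Socs3, a brake on cytokine signalling that interleukin 6 family cytokines also induce, stood at 10.2 ± 5.29 CPM in JR5558 and 5.12 ± 1.08 CPM in C57BL/6J. It rose by 1.01 ± 0.28 (adjusted p = 0.0370), a call that held in 1 of 6 fits that leave out 1 library, the one without JR5558 4-week replicate 2. Without JR5558 4-week replicate 1 the Socs3 difference was 0.57 ± 0.25 (adjusted p = 0.222), and without any C57BL/6J library of 4 weeks or JR5558 replicate 3 the adjusted p was 0.0567 to 0.114.

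At 8 weeks 1 of the 91 genes was higher in JR5558 past the threshold and 0 were lower past it, where 5.18% of all tested genes were called. At neither age was the share of the 91 genes above that of all genes. Ifnar1, a chain of the type I interferon receptor, stood at 59.2 ± 0.939 CPM in JR5558 and 47.5 ± 2.20 CPM in C57BL/6J, with no overlap, and rose by 0.32 ± 0.08 (1.25-fold, adjusted p = 0.0176). The call held without C57BL/6J 8-week replicate 1 and ended in the other 5 fits that leave out 1 library (C57BL/6J replicates 2 and 3 and every JR5558 replicate of 8 weeks), with adjusted p-values of 0.0583 to 0.0872. At 4 weeks Ifnar1 differed by 0.18 ± 0.08 (adjusted p = 0.195). Lgals3bp at 8 weeks stood at 25.5 ± 3.34 CPM in JR5558 and 17.7 ± 1.47 CPM in C57BL/6J, a log2 fold change of 0.52 ± 0.16 that did not pass (adjusted p = 0.0605). In the age comparisons and the interaction 0 of the 91 genes passed by edgeR, where 1.51% of all tested genes did in JR5558, 0.431% in C57BL/6J and 0.0927% in the interaction. At an unadjusted p under 0.05 there were 9 of the 91 in JR5558, 11 in C57BL/6J and 1 in the interaction. Of all tested genes, 16.9% reached it in JR5558, 14.4% in C57BL/6J and 7.19% in the interaction.

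List by list, at 4 weeks the median log2 fold change was 0.09 for the 11 receptor and signalling genes, 0.35 for the 11 sensors, adaptors and kinases, and 0.10 for the 8 other IRF genes. It was 0.32 for the 40 other antiviral effectors, 0.10 for the 13 interferon-inducible GTPases and 0.23 for the 8 brakes. At 8 weeks the same medians were 0.04, 0.10, 0.12, 0.10, 0.09 and 0.09. Of the 91 genes, 69 had fold changes above 0 at 4 weeks and 60 at 8 weeks, against 9128 and 9142 of 18334 over all tested genes. Genes of a list can move together and were not counted as separate evidence.

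**Figure D4:**
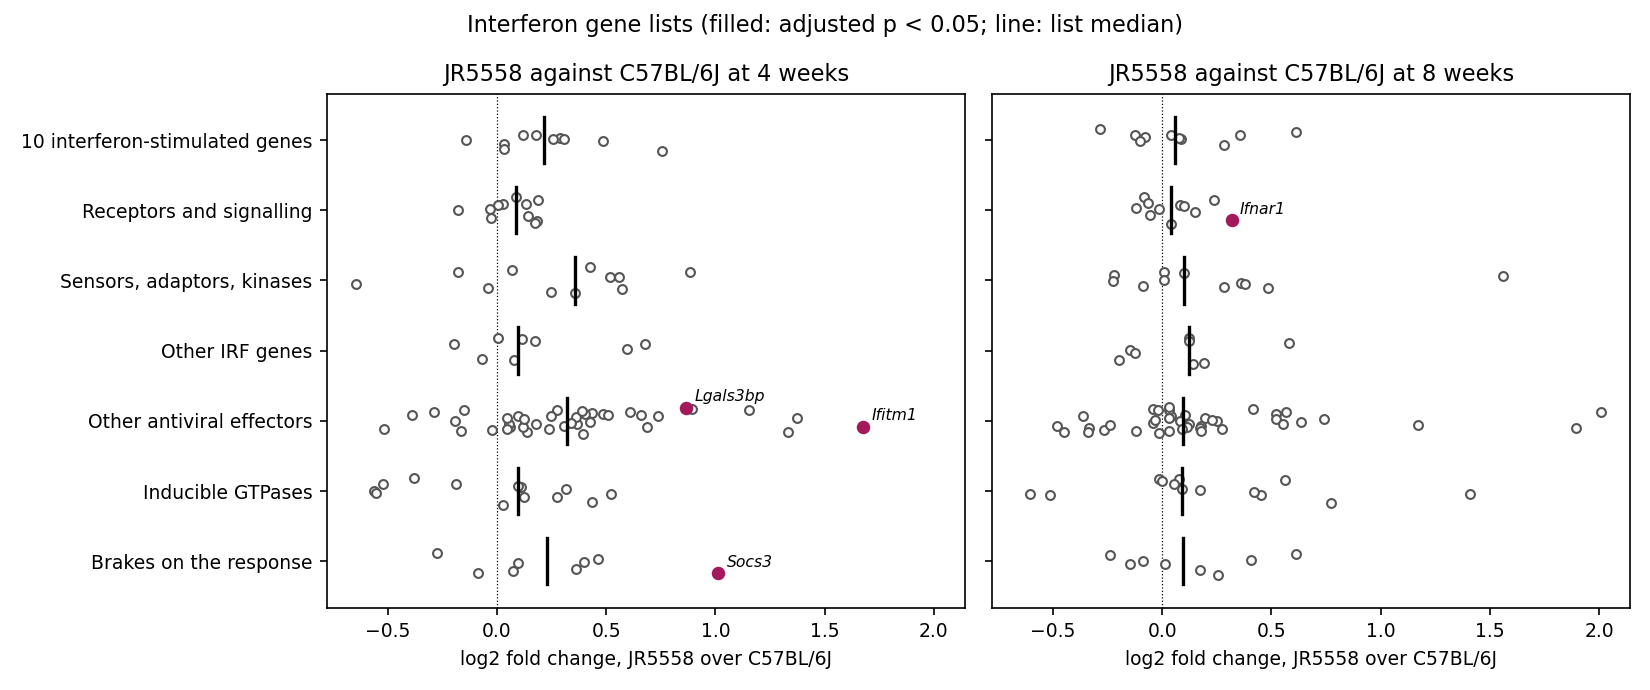
Log2 fold changes of JR5558 over C57BL/6J (horizontal axes) for the tested genes of each interferon list at 4 weeks (left) and 8 weeks (right). Circles are genes, filled where the edgeR adjusted p was under 0.05, and vertical lines are list medians; Lgals3bp, Ifitm1 and Socs3 are filled at 4 weeks and Ifnar1 at 8 weeks.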

How the data were processed

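The submitters' processing notes name the mm10 genome and the tools featureCounts 1.5.0-p3, HISAT2 2.0.5 and fastp. Per the file headers, the authors deposited raw read counts for every gene in each library. They also deposited FPKM, used here only for levels between genes. Their own comparisons were deposited as log2 fold changes with p-values (raw and adjusted), by a test not given in the sources used here. The labels do not settle whether the libraries kept strand. Only 2.83% of positions in the table matched GENCODE M21 on GRCm38, so coordinates are given only for RefSeq GRCm38.p6 promoters.

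The software was edgeR 4.0.16 and, as an alternative, DESeq2 1.42.0, in R 4.3.3. After filterByExpr (at least 10 counts, with a total of at least 15), 18334 genes remained. TMM factors scaled the libraries. The model had 1 mean per group over all 12 libraries, and its 5 contrasts used the 2-sided quasi-likelihood test of edgeR, with Benjamini-Hochberg adjustment over all tested genes and a threshold of 0.05. Fold changes carry the standard error, CPM the SD of 3 mice. Log2 CPM used a prior count of 2. Pair correlations were tested by 100000 permutations of all 12 libraries, without regard to group (2-sided). The fitting code was tested on simulated data.

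The 10 genes, the interferon and marker lists and the tests were chosen with earlier results of these data known. By rule all 10 genes are named. From each other list up to 4 called genes are named per strain comparison and up to 2 per age comparison, in the order of adjusted p, beside near copies, overlapping genes and the 8 genes most like the 10. Markers were named after their values were seen, and some listed genes are not reported here.

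Alternatives were DESeq2, RLE size factors, no low-count filter, fitting just the compared groups, a block for the replicate number, and leaving out each library. The contrasts over both strains and over both ages were added after the values were seen. Libraries held 18029600 to 23739900 counts, and floors for 0 counts cover counting error only.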

Additional observations from a re-analysis of the deposited data

How the results depend on the processing

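The strain, age and interaction counts of 0 called genes of the 10 stayed at 0 under most alternatives. For 8 against 4 weeks, 1 gene (Ifit3) was called in JR5558 by DESeq2, with RLE normalization and with no filter on low counts, and 1 (Ifit3) in C57BL/6J by DESeq2 and with no filter. For strain at 8 weeks, 1 gene (Bst2) was called when only the groups compared were fitted. Leaving out 1 library gave 0 to 2 calls for strain at 4 weeks, 0 for strain at 8 weeks, 0 to 1 for age in JR5558, 0 for age in C57BL/6J and 0 for the interaction. Among the contrasts added after the values were seen, 8 against 4 weeks over both strains gave 1 call (Ifit3), 2 with no filter (Ifit3 and Ifit1) and 1 to 2 when 1 library was left out. JR5558 against C57BL/6J over both ages gave 1 call (Bst2), 2 by DESeq2 and 2 with no filter (Bst2 and Irf9). It gave 0 to 2 when 1 library was left out. DESeq2 called 13.3% of all tested genes over both ages. For alternatives other than DESeq2 the share of all tested genes called is not given here. The counts under them, also those with the replicate block below, are therefore not read as a result about the 10 genes.

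Among the other 91 interferon genes, the 3 calls at 4 weeks fell to 1 when only the groups compared were fitted and to 1 with the replicate block, and ran from 1 to 4 without 1 library. The 1 call at 8 weeks became 4 by DESeq2, which called 6.73% of all tested genes there. The count was 4 with no filter and 6 with only the groups compared, and ran from 0 to 1 without 1 library. For settings other than DESeq2 the share of all tested genes called is not given here, so these counts are not read as a result about the list. The cause of these shifts was not tested.

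Small fold changes turned sign when 1 library was left out. The strain values ran from -0.32 to 0.15 (4 weeks) and -0.31 to 0.10 (8 weeks) for Ifih1, from -0.065 to 0.074 and -0.12 to 0.17 for Irf1, and from -0.25 to 0.23 and -0.50 to 0.022 for Isg15. The age values ran from -0.12 to 0.12 for Ifit2 and -0.015 to 0.51 for Isg15 in JR5558, and from -0.092 to 0.23 for Irf9 in C57BL/6J.

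Same-numbered libraries did not deviate together (correlations of -0.09 to 0.09), and those with different numbers ranged from -0.08 to 0.11. This gave no sign that the numbers pair the mice, but it cannot show that the mice were unpaired. With the replicate block, 0 of the 10 genes were called in each strain, age and interaction contrast, 1 over both strains and 1 over both ages. DESeq2 gave no adjusted p for 2 of 670 single-gene values. Isg15, at 19 to 58 counts per library, was the gene most limited by depth.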
